A study of Mus musculus with 6 samples.

Results

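Genes annotated to transport of ions, solutes, lipids, proteins or vesicles were compared between wild-type and Yaf2KO mouse embryonic stem cells. The deposited tables carry a Gene Ontology biological process text for each gene. That text contains the word transport for 133 of the 1653 listed genes. Leaving out 18 genes whose text also contains transcription, 34 genes with Gm or Rik names, and Slc2a3 and Nefm by name left 79 genes. Of these 72 are protein-coding in GENCODE vM21, 5 are pseudogenes and 42 carry a term for ion or proton transport. The cellular component text names the plasma membrane for 45 of the 79. A match of text is not proof of a transporter. Pkdcc, a secreted protein kinase, Aoc3, a cell surface amine oxidase, and Zp2, a protein of the egg coat, are in the set through their annotation alone.

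The groups were wild type and Yaf2KO, 3 libraries each, both on the C57BL/6 strain. All cells grew on mitomycin-inactivated mouse embryonic fibroblasts with fetal calf serum and leukemia inhibitory factor, and Cas9 was used to make the Yaf2KO cells. The labels do not say whether the Yaf2KO libraries come from 1 clone or several, nor whether the libraries of a genotype are separate cultures, so each p-value speaks of the spread among these libraries alone, and that spread may be technical. YAF2 is a subunit of variant Polycomb repressive complexes 1, and the question of the study, by its title, is how Yaf2 regulates expression. Neither Yaf2 nor its paralogue Rybp is among the listed genes, so the knockout was not checked on its target here.

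Membrane transport rests on a few kinds of protein. Solute carriers move nutrients and ions along or against gradients, ATP-driven pumps and ABC transporters use the energy of ATP, and channels and aquaporins open a pore through which ions or water flow. Inside the cell, Rab GTPases, synaptotagmin-like proteins and sorting nexins steer vesicles, while dynein light chains link cargo to microtubule motors. Stem cells depend on uptake of sugars, amino acids and lipids for growth, whereas many neuronal channels and epithelial transporters are used mainly in differentiated tissues.

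Few of the 79 genes carried many reads. Together they held 1241, 1085 and 1763 reads in wild type 1 to 3, and 9048, 4819 and 3607 in Yaf2KO 1 to 3. All listed genes together summed to between 56367 and 72975 counts in wild type and between 143682 and 451075 in Yaf2KO. These sums are part of a library and not its depth, which was not used here. As a share of the listed counts the set was alike in both genotypes, at 2.08% ± 0.29 in wild type and 2.15% ± 0.32 in Yaf2KO (SD, n = 3 each). Slc27a2 alone held 26.3% of the set's reads and the 10 genes with the most reads held 70.6%. Mean counts reached 100 in 10 genes and 10 in 34, and 16 genes had fewer than 10 reads over the 6 libraries. Of the markers fixed for embryonic stem cells, 5 of 15 are listed (Nanog, Klf4, Klf5, Tet2 and Tbx3), each with reads in every library. Of the feeder fibroblast markers 7 of 25 are listed. Postn and Prrx1 had at most 12 reads in any library, while the other listed ones had between 81 and 7092.

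Promoters were read from RefSeq (GRCm38.p6) because CpG-rich promoters are where variant PRC1 is known to bind. A start could be matched for 56 of the 79 genes, 41 of them within 100 bases of the gene start in the deposited tables. The 250 bases before the start are shown for 4 genes on which the results below turn, 5′ to 3′ on the gene's strand with CG dinucleotides in capitals. Rab25 (chr3:88548280-88548529, minus strand) was the tested gene whose scaled values did not overlap between the genotypes. Slc15a2 (chr16:36784963-36785212, minus strand) had the highest fitted change of the tested genes. Aqp3 (chr4:41098184-41098433, minus strand) had the most reads after Slc27a2, and Slc26a9 (chr1:131743772-131744021, plus strand) was called when no low-count filter was applied.
Rab25: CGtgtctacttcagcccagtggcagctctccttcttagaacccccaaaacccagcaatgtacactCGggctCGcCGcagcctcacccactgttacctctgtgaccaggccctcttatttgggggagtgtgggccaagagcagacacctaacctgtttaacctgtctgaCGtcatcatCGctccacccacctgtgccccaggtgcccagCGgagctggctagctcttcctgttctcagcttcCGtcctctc
Slc15a2: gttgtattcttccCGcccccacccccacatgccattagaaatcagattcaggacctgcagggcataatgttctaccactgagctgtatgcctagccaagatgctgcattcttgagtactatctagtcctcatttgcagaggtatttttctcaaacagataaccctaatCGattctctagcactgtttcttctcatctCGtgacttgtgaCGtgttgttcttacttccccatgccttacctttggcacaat
Aqp3: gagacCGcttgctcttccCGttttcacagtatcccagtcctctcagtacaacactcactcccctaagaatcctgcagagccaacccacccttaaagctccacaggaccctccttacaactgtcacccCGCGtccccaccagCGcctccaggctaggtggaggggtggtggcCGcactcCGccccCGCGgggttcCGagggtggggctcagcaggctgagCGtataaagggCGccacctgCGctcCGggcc
Slc26a9: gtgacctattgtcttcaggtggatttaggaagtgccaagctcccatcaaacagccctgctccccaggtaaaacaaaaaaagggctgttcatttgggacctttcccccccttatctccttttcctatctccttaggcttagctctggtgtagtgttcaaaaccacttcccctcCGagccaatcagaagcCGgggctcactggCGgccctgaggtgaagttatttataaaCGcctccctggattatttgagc
These windows hold 8, 4, 14 and 4 CG dinucleotides. The median was 6 over the 56 matched genes and 6 over all 32851 promoters of the table, and 44.6% of the matched genes had at most 5 against 49.6% of all promoters. Searched on both strands, TATAAA was found before 11 of the 56 genes (19.6%, against 12.4% of all promoters), among them Aqp3 and Slc26a9. The other motifs searched were CCAAT (35.7% against 33.8%), GGGCGG (41.1% against 32.7%) and CACGTG (1.79% against 6.02%). None of these motifs contains another, and a promoter was scored only for the presence of a motif, however many matches it had. A match is a description of letters and shows no binding.

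In raw counts nearly all transport genes were higher in Yaf2KO, as was the list as a whole. The 3 Yaf2KO libraries together held more reads than the 3 wild-type libraries for 76 of the 79 genes (96.2%) and fewer for 0 genes. Sums were equal for Trpm5, Bpifb9a and Rab9b. Among all listed genes 92.2% had the higher sum in Yaf2KO. The lowest Yaf2KO count exceeded the highest wild-type count in 33 of the 79 genes (41.8%), beside 27.4% of all listed genes. The reverse held for 0 genes in the set and 0 in the whole list. Genes with few reads separated less often. Where the mean count reached 10, the groups were separate in this way for 21 of 34 genes in the set, beside 59.6% of all such listed genes. Yaf2KO 1 exceeded all wild-type libraries in 68 of the 79 genes (80.2% of all listed genes), Yaf2KO 2 in 55 (63.2%) and Yaf2KO 3 in 40 (37.0%). Raw counts are not corrected for depth.

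**Figure D1:**
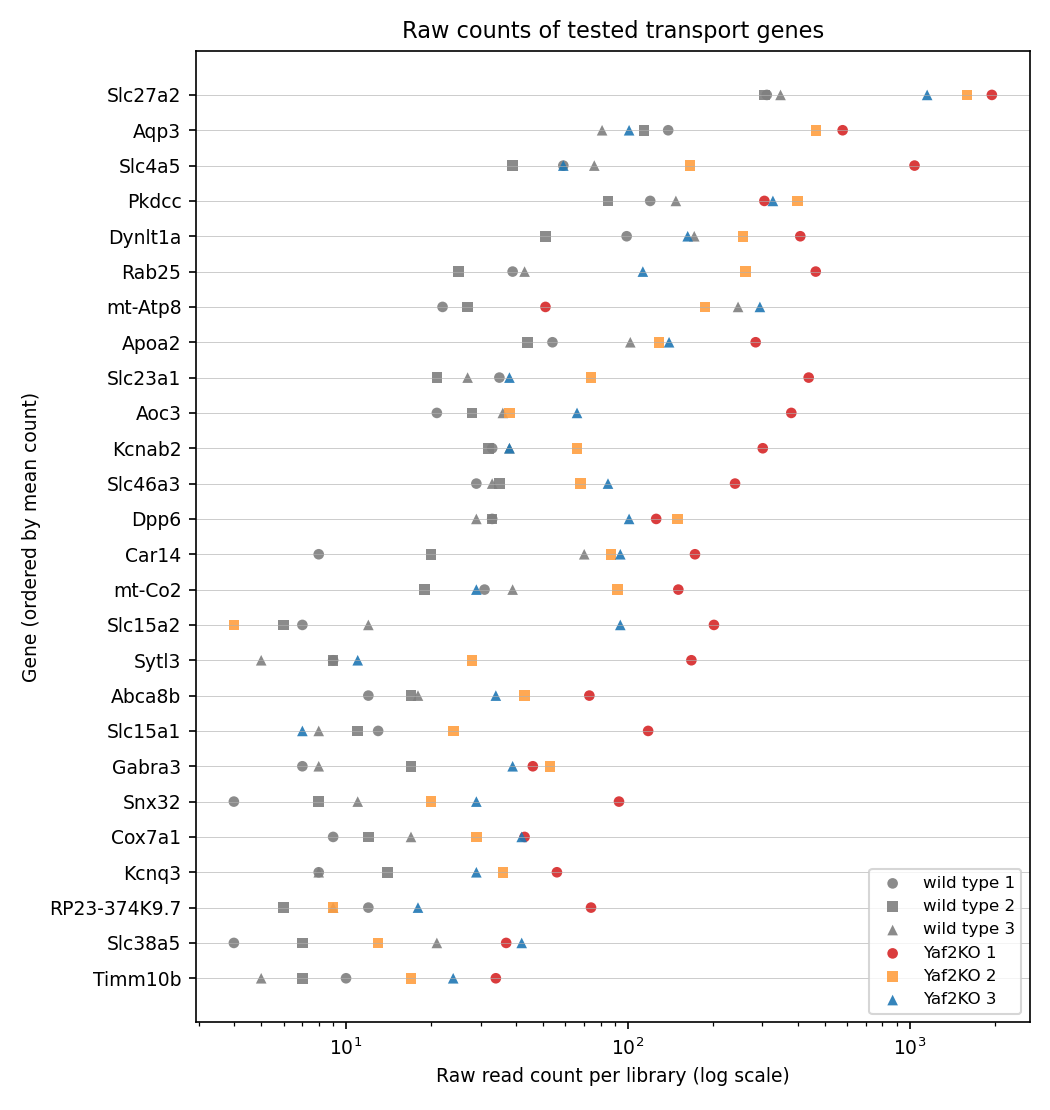
Raw read counts (log scale) of 26 of the 27 transport genes with enough reads for the test, 1 row per gene ordered by mean count. Grey points are the 3 wild-type libraries and coloured points the 3 Yaf2KO libraries. In 16 of the 26 rows all Yaf2KO points lie to the right of all grey points, and Yaf2KO 1 is the highest Yaf2KO library in 21 rows.

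The low-count filter left 27 of the 79 genes for the scaled comparison, in which each library is scaled on the listed genes, so that 0 on the log2 scale stands for a gene that moved like the bulk of the list. Of the 27 genes 0 were called higher and 0 lower at an adjusted p under 0.05 (edgeR quasi-likelihood with Benjamini-Hochberg adjustment). The count was also 0 by DESeq2. At an unadjusted p under 0.05 (edgeR) it was 0 of 27, beside 16 of all 376 tested genes. At the adjusted threshold 0.798% of all 376 tested genes were called higher and 0 genes lower (edgeR). The adjusted p of the 27 ran from 0.950 to 0.998 (edgeR). Their log2 fold changes ran from -0.65 to 1.56 with a median of -0.11, beside a median of -0.03 over all tested genes, and 11 lay above 0 and 16 below. Standard errors were 0.36 to 1.07, which limits how small a change relative to the list could be told from 0. With all libraries taken instead as equally deep, 20 of 29 genes were called higher (69.0%, edgeR), beside 75.7% of all tested genes. The median of the set was then 1.98 and that of all tested genes 2.12. Scaling on the list lowers the fold changes by a median of 2.16 log2 units (4.46-fold) against equal depth, so the sign of a log2 fold change below is relative to the list. The 52 genes outside the test all had mean counts of at most 43.0. In raw counts 16 of them were separate, beside 27.4% of all listed genes, tested or not.

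**Figure D2:**
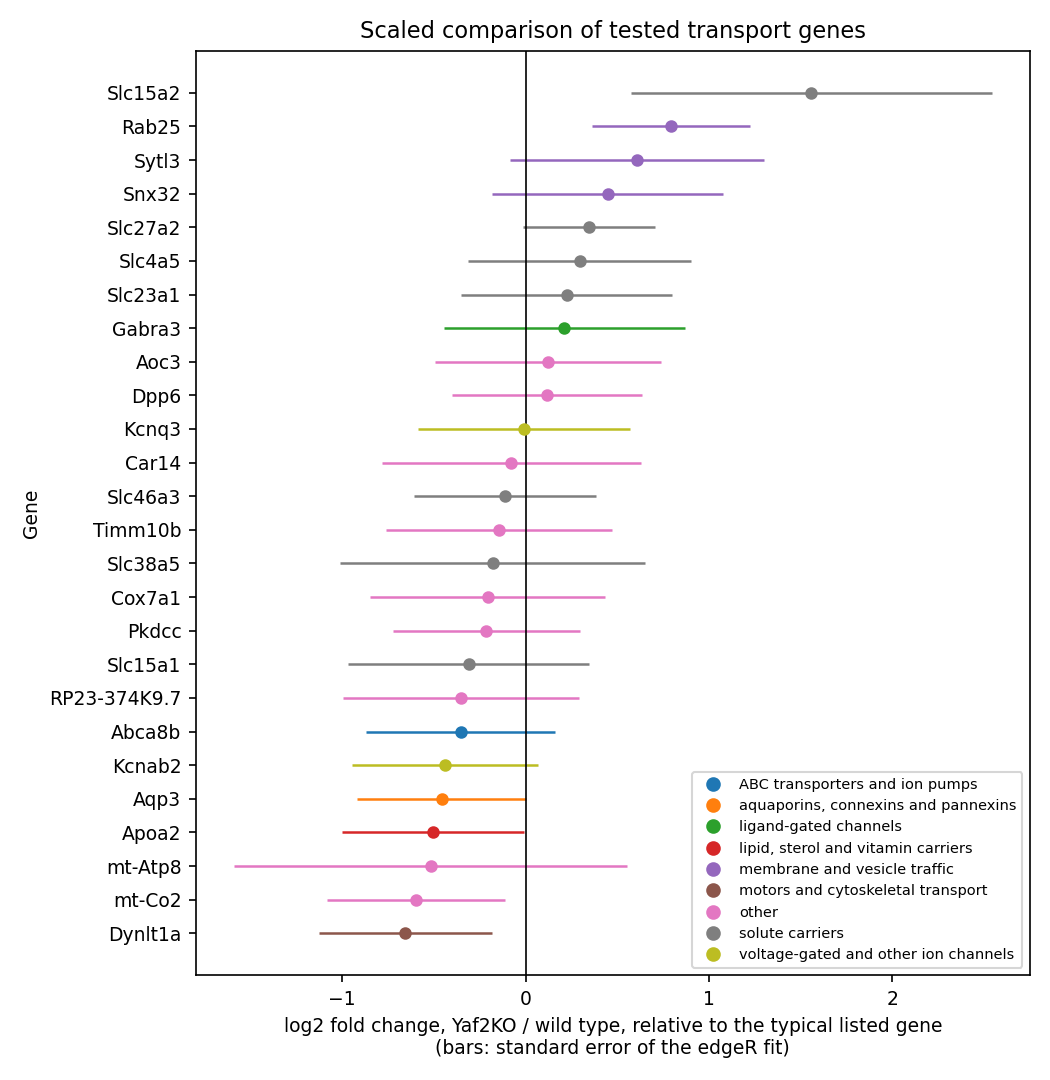
Log2 fold change of Yaf2KO over wild type for 26 of the 27 tested genes, relative to the bulk of the listed genes (x axis, log2 units), with the standard error of the edgeR fit as bars and colour for the functional class. The points run from -0.65 for Dynlt1a to 1.56 for Slc15a2 and 0 of the 26 passed the threshold.

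Solute carriers were the largest class, with 21 genes, 8 of them tested. All 21 had more reads in Yaf2KO and 10 were separate in raw counts, beside 92.2% and 27.4% of all listed genes. Relative to the list, 5 of the 8 lay above 0 and 3 below, with a median of 0.26 and 0 called. In CPM, counts brought to a common sum of the listed counts, their total was 7836, 8569 and 8085 in wild type 1 to 3 and 10375, 8879 and 12521 in Yaf2KO 1 to 3. All Yaf2KO libraries lay above all wild-type libraries for this sum, which was not tested. Much of it was Slc27a2, with 311, 305 and 348 of the 514, 483 and 590 class reads in wild type. In Yaf2KO 1 to 3 Slc27a2 had 1956, 1596 and 1153 of 4680, 2230 and 1799, and Slc4a5 had 1040 in Yaf2KO 1.

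Slc27a2 (chr2:126552407-126588243, plus strand, mm10), which takes up and activates long-chain fatty acids, had 311, 305 and 348 reads in the wild-type libraries and 1956, 1596 and 1153 in those of Yaf2KO. The groups did not overlap and the wild-type libraries lay close together. After scaling it stood at 4976 ± 314 CPM in wild type against 6339 ± 2332 in Yaf2KO (SD, n = 3 each). The scaled groups overlapped because Yaf2KO 1, at 4029, lay below all wild-type libraries. The fitted log2 fold change of 0.35 (SE 0.36) did not pass (adjusted p = 0.950, edgeR). It was 0.08 without Yaf2KO 3 and 0.58 without Yaf2KO 1. Per kilobase of exon, the scale on which genes can be compared, Slc27a2 stood at 1325 ± 83.6 CPM in wild type. That is the third highest level of the 27 tested genes after mt-Atp8 and Apoa2, both with short transcripts, and the spread of both takes in the level of Slc27a2.

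Peptide transport is the role of Slc15a1 and Slc15a2, the proton-coupled oligopeptide carriers of intestine and kidney. Slc15a2 had 7, 6 and 12 reads in the wild-type libraries against 202, 4 and 94 in those of Yaf2KO. Yaf2KO 2 was the lowest of all 6 libraries and Yaf2KO 1 and 3 were the highest, so the groups overlapped. The fitted log2 fold change of 1.56 (SE 0.98, adjusted p = 0.950, edgeR) was the highest of the tested genes. It was 2.11 without Yaf2KO 2 and 0.74 without Yaf2KO 3. Slc15a1 had 13, 11 and 8 counts against 118, 24 and 7, with a log2 fold change of -0.31 (SE 0.66). Here Yaf2KO 3 had the fewest reads of any library, and leaving out Yaf2KO 1 gave -1.13 and leaving out Yaf2KO 3 gave 0.02.

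Bicarbonate, vitamin C and chloride carriers had most of their reads in Yaf2KO 1. Slc4a5, a sodium bicarbonate cotransporter, had 59, 39 and 76 reads in the wild-type libraries against 1040, 166 and 59 in those of Yaf2KO. Slc23a1, a sodium-dependent vitamin C transporter, had 35, 21 and 27 against 438, 74 and 38. Their log2 fold changes were 0.30 (SE 0.61) and 0.22 (SE 0.57), and -0.69 and -0.56 without Yaf2KO 1. Slc26a9, an anion transporter of airway and stomach, had 3, 1 and 2 counts against 211, 35 and 6. It missed the low-count filter. Without a filter it was called higher (scaled log2 fold change 3.12, SE 0.86; adjusted p = 0.0351, edgeR), as 1 of 79 genes beside 0.916% of all 1638 genes tested that way. All 3 of its Yaf2KO counts exceeded the 3 wild-type counts, but only before scaling. As a share of the listed counts Yaf2KO 3 (6 of 143682) lay below wild type 1 (3 of 65595). The call was lost without any single wild-type library (adjusted p = 0.218, 0.380 and 0.243, edgeR) and without Yaf2KO 1 (log2 fold change 1.92; adjusted p = 0.777, edgeR).

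The other tested carriers had values close to 0. Slc46a3, a lysosomal carrier, had 29, 35 and 33 reads against 240, 68 and 85 (scaled log2 fold change -0.11, SE 0.50). Slc38a5, a neutral amino acid transporter, had 4, 7 and 21 against 37, 13 and 42 (-0.18, SE 0.83). Wild type 3 was the highest wild-type library there, and the value without it was 0.64. Of the 13 untested carriers, Slc10a4 and Slc5a10 had the most reads after Slc26a9. Slc10a4, of the bile acid carrier family, had 2, 0 and 3 reads against 24, 9 and 10, and Slc5a10, a sugar cotransporter, had 4, 6 and 3 against 20, 9 and 6. Slc2a13 and Slc38a8 had 0 reads in every wild-type library and 11 reads each over the Yaf2KO libraries, with 0 for Slc38a8 in Yaf2KO 3. That is at least 3.67-fold higher in raw counts, with 3 counts over the group as the limit that a count of 0 allows. The median raw ratio of all tested genes was 4.34, so this limit does not exceed the shift of the whole list.

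Pumps and ABC transporters were scarce. Abca8b, a lipid transporter of the ABC family and the 1 tested gene of 4, had 12, 17 and 18 reads in the wild-type libraries and 73, 43 and 34 in those of Yaf2KO. Raw values did not overlap, and the log2 fold change was -0.35 (SE 0.52). Abcc2, an export pump for conjugated drugs and bile pigment, had 6, 0 and 2 counts against 59, 22 and 4, and Atp1a4, a sodium pump subunit of sperm, had 1, 0 and 1 against 24, 9 and 6. Both missed the filter. Abcb6, a porphyrin transporter of the same family, had 10 reads in wild type and 11 in Yaf2KO.

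Ion channels of the voltage-gated and related families numbered 10, with 2 tested and both below 0. Kcnab2, a cytoplasmic beta subunit of potassium channels, had 33, 32 and 38 reads in the wild-type libraries and 301, 66 and 38 in those of Yaf2KO. Its scaled values were 492, 552 and 548 CPM against 620, 260 and 286, with Yaf2KO 2 and 3 below and Yaf2KO 1 above all wild-type libraries (log2 fold change -0.44, SE 0.51; -0.97 without Yaf2KO 1). Kcnq3, a subunit of the potassium channel that carries the neuronal M current, had 8, 14 and 8 counts against 56, 36 and 29 (-0.01, SE 0.58). The value of Kcnq3 turned positive under several alternatives. Among the untested channels Pkd1l2, of the polycystin family, had 1 read in each wild-type library and 70, 23 and 0 in Yaf2KO. Trpm3, a calcium-permeable channel, had 4, 6 and 3 against 42, 13 and 6. Trpm5, the cation channel of taste cells, had 16 reads in each genotype. Dpp6, an auxiliary subunit of potassium channels that the class by symbol does not include, had 33, 33 and 29 counts against 126, 150 and 101. Its raw groups were separate and its log2 fold change was 0.12 (SE 0.52).

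Ligand-gated channels numbered 5 and Gabra3 was the 1 tested. It encodes a subunit of the GABA-A receptor and had 7, 17 and 8 reads in the wild-type libraries and 46, 53 and 39 in those of Yaf2KO. Raw groups were separate, scaled values were not, and the log2 fold change was 0.21 (SE 0.66). Grin2b, a subunit of the NMDA glutamate receptor, had 1 read in wild type and 3, 2 and 6 in the libraries of Yaf2KO. The acetylcholine receptor genes Chrne and Chrna3 had at most 4 in any library.

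Aqp3 (chr4:41092722-41098183, minus strand), a channel for water and glycerol, had 139, 114 and 81 reads in the wild-type libraries and 578, 465 and 101 in those of Yaf2KO. In raw counts Yaf2KO 3 lay within the wild-type range. After scaling Yaf2KO 3 stood at 761 CPM, below all wild-type libraries (2074, 1967 and 1169 CPM). The log2 fold change was -0.46 (SE 0.46) and the level per kilobase of exon was 950 ± 270 CPM in wild type and 690 ± 295 in Yaf2KO (SD, n = 3 each). Gjb1, a connexin of liver and myelinating cells, had 0, 5 and 6 counts against 101, 23 and 13. It missed the low-count filter in the scaled comparison.

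The vesicle traffic genes were the 1 class with more than 1 tested gene in which all tested genes lay above 0, with log2 fold changes of 0.45 to 0.79 and 0 of 3 called. Rab25, an epithelial GTPase of recycling endosomes (chr3:88542029-88548300, minus strand), had 39, 25 and 43 reads in the wild-type libraries and 464, 261 and 113 in those of Yaf2KO. Scaled values were 582, 431 and 621 CPM in wild type and 956, 1030 and 852 in Yaf2KO, so every Yaf2KO library lay above every wild-type library after scaling. It was the 1 gene of the 27 in either direction for which this held, beside 6.12% of all tested genes separated upward and 4.26% downward. The log2 fold change was 0.79 (SE 0.43, unadjusted p = 0.0938 and adjusted p = 0.950, edgeR quasi-likelihood) and ran from 0.72 to 0.94 with single libraries left out. Rab25 also had the smallest spread between the Yaf2KO libraries of all 27 genes, with an SD of 0.14 log2 units.

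Sytl3, a synaptotagmin-like partner of secretory Rab proteins, had 9, 9 and 5 reads against 168, 28 and 11 (scaled log2 fold change 0.61, SE 0.69). Without Yaf2KO 1 the value was -0.30. Its locus overlaps Ezr on the other strand. Snx32, a sorting nexin, had 4, 8 and 11 counts against 93, 20 and 29 (0.45, SE 0.63). The adaptor subunit Ap4b1 had 4 reads in wild type and 26 in Yaf2KO, and Rab9b had 1 in each.

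The lowest fitted values of the tested genes were those of a motor subunit, a lipid carrier and mitochondrial genes. Dynlt1a, a dynein light chain, had 99, 51 and 172 reads in the wild-type libraries and 409, 256 and 163 in those of Yaf2KO (scaled log2 fold change -0.65, SE 0.47; -0.21 without wild type 3). Reads of Dynlt1a are uncertain because near-identical copies of the gene lie in the same cluster. Apoa2, an apolipoprotein of high-density lipoprotein, had 54, 44 and 102 counts against 284, 129 and 140 (-0.50, SE 0.50; -0.15 without wild type 3), with separate raw groups and overlapping scaled ones.

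Both mitochondrially encoded genes of the set lay below 0. The oxidase subunit gene mt-Co2 had 31, 19 and 39 reads against 151, 92 and 29 (scaled log2 fold change -0.60, SE 0.49). For mt-Atp8, an ATP synthase subunit gene that overlaps mt-Atp6, the counts were 22, 27 and 246 in wild type and 51, 188 and 294 in Yaf2KO. Wild type 3 had more reads than Yaf2KO 1 and 2, the log2 fold change was -0.52 (SE 1.07), and without wild type 3 it was 1.33. Of the nuclear genes with mitochondrial roles, Cox7a1, a muscle form of an oxidase subunit, had 9, 12 and 17 counts against 43, 29 and 42 (-0.21, SE 0.64). Timm10b, of the import machinery of the inner membrane, had 10, 7 and 5 against 34, 17 and 24 (-0.14, SE 0.62). Ccdc109b, a regulator of the calcium uniporter, had 4, 4 and 11 against 34, 21 and 18 and was not tested.

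Among the remaining genes Pkdcc had 120, 85 and 148 reads in the wild-type libraries and 305, 399 and 327 in those of Yaf2KO (scaled log2 fold change -0.21, SE 0.51). Its scaled value was 628 CPM in Yaf2KO 1, below all wild-type libraries, and 2465 in Yaf2KO 3, above all of them. Aoc3 had 21, 28 and 36 counts against 380, 38 and 66 (0.12, SE 0.62). Car14, a membrane carbonic anhydrase, had 8, 20 and 70 against 173, 87 and 94 (-0.08, SE 0.71). Without wild type 3 the value of Car14 was 0.97, and without Yaf2KO 3 it was -0.46. Its locus overlaps Aph1a on the other strand. The clone-named RP23-374K9.7 overlaps Washc2 on the opposite strand and had 12, 6 and 9 counts against 74, 9 and 18 (-0.35, SE 0.64). The ammonium transporter gene Rhcg had 5, 1 and 8 against 48, 10 and 9 without being tested. The pseudogene Ranbp2-ps1, the 1 gene of the nuclear transport class, had 1 read in wild type and 11 in Yaf2KO. Of the 27 tested genes 17 overlap another annotated gene. For 15 of them a partner lies on the other strand, and because no strand setting is given the reads of the 2 strands cannot be told apart.

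**Figure D3:**
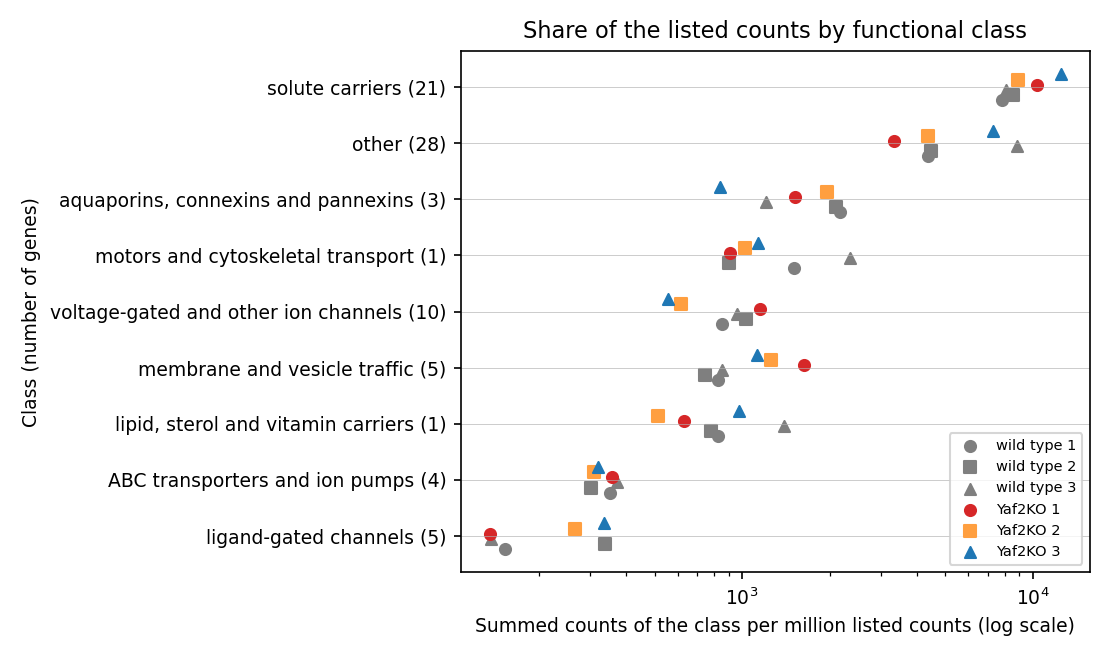
Summed counts of each functional class as CPM of the listed counts (x axis, log scale), 1 point per library; the number of genes is in brackets and the single gene of nuclear transport is left out. Grey symbols are wild type and coloured symbols Yaf2KO. The Yaf2KO points lie above all grey points for solute carriers and for membrane and vesicle traffic, and the groups overlap in the other 7 classes.

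Transport genes were more spread among the Yaf2KO libraries than among the wild-type libraries. Over the 27 genes the median SD of scaled log2 values was 0.78 between Yaf2KO libraries and 0.39 between wild-type libraries, and 22 genes had the larger spread in Yaf2KO. Over all 376 tested genes these medians were 0.67 and 0.43, with 261 genes more spread in Yaf2KO. Against the wild-type mean, the set's median was -0.30 in Yaf2KO 1, -0.43 in Yaf2KO 2 and 0.47 in Yaf2KO 3, where all tested genes had medians of 0.00039, -0.02 and -0.04. Yaf2KO 3 was the highest scaled Yaf2KO library for 17 of the 27 genes, against 34.6% of all tested genes. Yaf2KO 1 was highest for 7 (40.7% of all tested genes) and Yaf2KO 2 for 3 (24.7%).

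Some genes of the set showed opposite orders of the Yaf2KO libraries. Scaled levels ran from high to low over Yaf2KO 1, 2 and 3 in 4 genes, Slc4a5, Slc23a1, Sytl3 and Slc15a1, an order seen in 100 of all 376. They ran the other way in 10 genes, among them Slc27a2, Pkdcc, Dpp6, Gabra3 and mt-Atp8, an order seen in 79 of all 376. The listed stem cell markers moved in the first order: their summed share of the listed counts was 8.42%, 5.45% and 3.28% in Yaf2KO 1 to 3 and between 5.14% and 5.61% in wild type. The listed feeder markers made up 4.98% in Yaf2KO 2, 2.85% in Yaf2KO 3 and a lower share in Yaf2KO 1 (4515 of 451075 counts). In wild type they made up between 2.17% and 3.02%. Postn and Prrx1 were at 0 in Yaf2KO 1, where the other listed feeder markers had between 290 and 2493 reads. The part of either list of markers in these results was not tested. In bulk RNA, fewer cells of a type and less RNA per cell cannot be told apart.

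**Figure D4:**
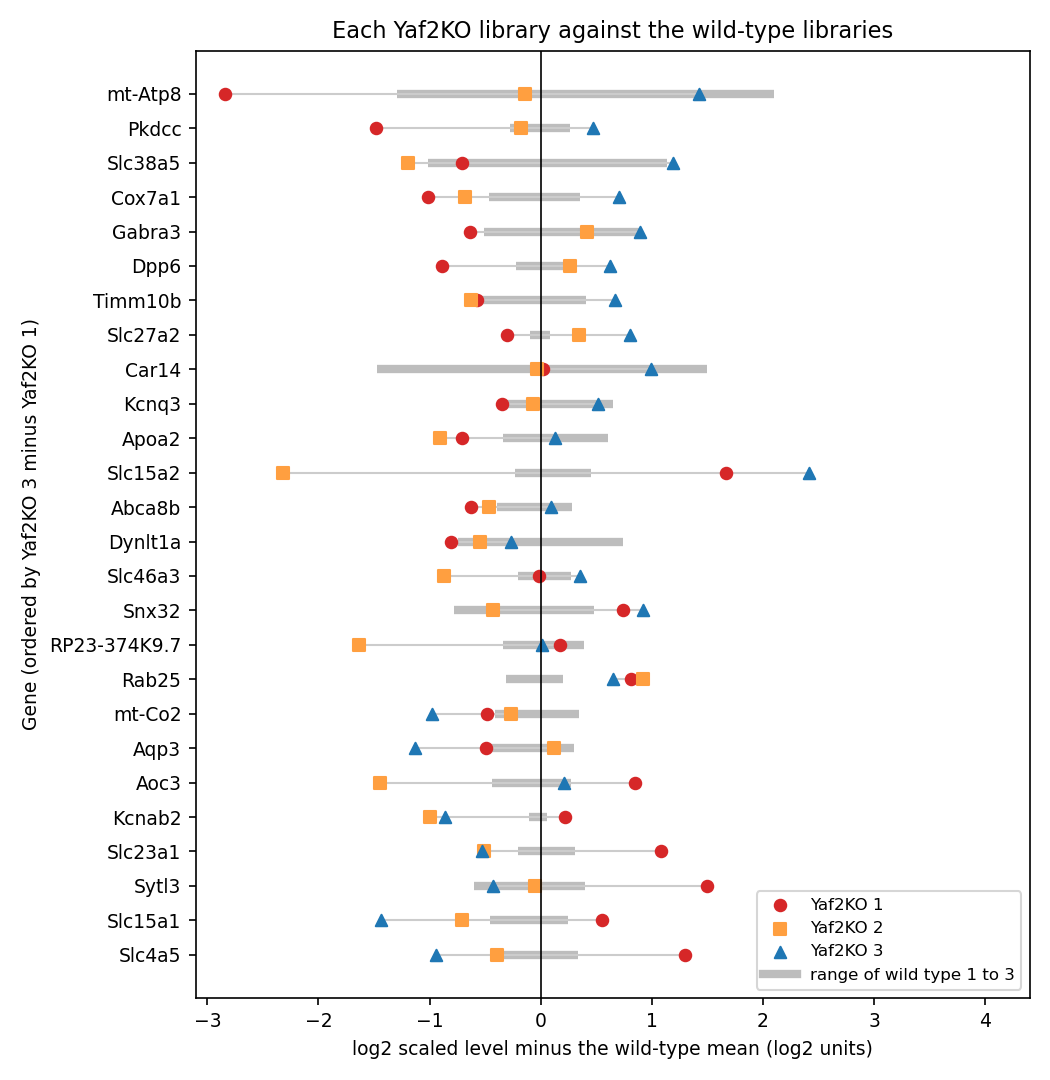
Scaled level of 26 of the 27 tested genes in the 3 Yaf2KO libraries minus the wild-type mean (x axis, log2 units), with the range of the wild-type libraries as a grey bar; genes are ordered by Yaf2KO 3 minus Yaf2KO 1. Yaf2KO 1 lies far to the left for mt-Atp8 and Pkdcc and to the right for Slc4a5, and the points of Rab25 lie close together to the right of the grey bar.

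The same families also hold 25 listed genes that the annotation text did not pick, Slc2a3 apart. Of these 24 had more reads in Yaf2KO, 1 had equal sums and 10 were separate in raw counts, beside 92.2% and 27.4% of all listed genes for higher sums and separation. Relative to the list 0 of the 9 tested were called (edgeR). Atp2b4, a calcium pump, had 116, 109 and 99 reads in the wild-type libraries and 1317, 355 and 104 in those of Yaf2KO (scaled log2 fold change -0.04, SE 0.49). Cav1, the coat protein of caveolae, had 15, 31 and 6 against 71, 303 and 115 (1.39, SE 0.82), with its highest level in Yaf2KO 2, as for the feeder markers. Dnah12, an axonemal dynein, had 6, 7 and 7 against 937, 32 and 6 (2.76, SE 1.18), where almost all reads were in Yaf2KO 1.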

How the data were processed

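RNA-seq libraries of mouse embryonic stem cells, 3 wild type and 3 Yaf2KO, were grouped and numbered by their titles. Per the file headers, each deposited file gives raw read counts per gene for 1 library with coordinates and annotation text; poly-T selected mRNA was used, per the labels' protocols. TopHat2 2.0.12, HTSeq 0.6.0, Cufflinks 2.2.1 and mm10 are listed in the submitters' processing notes without roles. How reads were assigned to strands, and how the 1653 genes that all 6 files share were selected, is not stated there.

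The genes and lists were chosen with earlier results of these data known. Functional classes were assigned by symbol; Pkdcc, which shares letters with a channel family, was moved to the remaining genes after its values were seen, as were a few listed genes outside the set. The fit used edgeR 4.0.16 (R 4.3.3): filterByExpr, TMM factors (0.923 to 1.08), glmQLFit with robust estimation, glmQLFTest and Benjamini-Hochberg adjustment over all tested genes at 0.05. CPM use the sum of all listed counts times the TMM factor, for class sums without that factor; log2 values used a prior count of 2. The test was also run on simulated data, with mean levels, library sums and spread taken from these data. Named were the 5 highest and 5 lowest log2 fold changes and the 5 largest Yaf2KO spreads (mean count at least 20), and the top 3 tested genes by count of each class (with none tested, the top 1); others were named after their values were seen. All pairs of libraries of a genotype differed by more than counting noise (lowest chi-square ratio to its degrees of freedom 5.01). Alternatives were DESeq2 1.42.0 (size factors and Wald test), equal depth, no filter, a replicate block and each library left out. The values of 3 genes are not reported here by name; they stay in the counts and medians.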

Additional observations from a re-analysis of the deposited data

How the results depend on the processing

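The count of 0 called genes stayed at 0 with DESeq2 size factors, the DESeq2 Wald test, the replicate number as a block, and each library left out (0 to 0 called; 0 to 1 at an unadjusted p under 0.05). It was 20 at equal depth and 1, Slc26a9, without a low-count filter (4 of 79 at an unadjusted p under 0.05). Leaving out each library without a filter, chosen after seeing the data, gave 0 to 1. The median of the tested genes moved to 1.98 at equal depth, where by construction a shift of the whole list is not removed, and to 0.24 without a filter, over 79 genes. With single libraries left out it ran from -0.18 to 0.18. Raw separation held in 21 genes whose mean count reached 10, where fewer genes are counted, and in 34 to 49 of 79 with single libraries left out (29.5% to 53.5% of all listed genes). Scaled separation, in either direction, was 1 of 27 with DESeq2 size factors (10.6% of all tested genes) and 4 to 7 of 26 to 35 with single libraries left out (16.0% to 33.7% of all tested genes), where fewer samples have to separate.

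At equal depth all 16 tested genes below 0 became positive: Abca8b 1.67, Apoa2 1.47, Aqp3 1.78, Car14 1.85, Cox7a1 1.58, Dynlt1a 1.36, Kcnab2 1.97, Kcnq3 2.00, Pkdcc 1.55, RP23-374K9.7 1.89, Slc15a1 2.21, Slc38a5 1.51, Slc46a3 2.01, Timm10b 1.75, mt-Atp8 0.85 and mt-Co2 1.61. Without a filter 8 did: Car14 0.35, Cox7a1 0.10, Kcnq3 0.26, Pkdcc 0.10, Slc15a1 0.0064, Slc38a5 0.19, Slc46a3 0.18 and Timm10b 0.12. Kcnq3 was 0.028 with DESeq2 size factors and 0.028 by the Wald test; the cause was not tested. With single libraries left out, 16 genes changed sign, with values from -0.48 to 0.54 for Aoc3, -0.46 to 0.97 for Car14, -0.93 to 0.095 for Cox7a1, -0.18 to 0.44 for Dpp6, -0.15 to 0.96 for Gabra3, -0.29 to 0.52 for Kcnq3, -0.66 to 0.15 for Pkdcc, -0.54 to 0.056 for RP23-374K9.7, -1.13 to 0.018 for Slc15a1, -0.56 to 0.49 for Slc23a1, -0.46 to 0.64 for Slc38a5, -0.41 to 0.15 for Slc46a3, -0.69 to 0.65 for Slc4a5, -0.30 to 0.91 for Sytl3, -0.41 to 0.17 for Timm10b and -1.69 to 1.33 for mt-Atp8.

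Both genotypes carry numbers 1 to 3, and the labels give these numbers no meaning as pairs. Across genes, deviations from the group mean correlated at 0.04, 0.18 and 0.17 within a number and at -0.35 to 0.25 between numbers. With the replicate block the called count was 0 and the median was -0.17; the values that changed sign were Aoc3 -0.12, Car14 0.28, Dpp6 -0.0029, Kcnq3 0.011 and Slc4a5 -0.0094. Low counts limit the scaled comparison to 27 of 79 genes.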
